A study of Mus musculus with 83 samples.

Results

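RNA polymerase II (Pol II) occupancy was compared between retinoic acid (RA)-treated and control C64 mouse embryonic stem cells (mESCs) in which the TATA-box binding protein TBP was not degraded. The 4 libraries, 2 of RA-treated and 2 of control cells, belong to a series of 83 samples, and all genes with enough counts were taken: 16350 of the 27752 genes of the count table. RA-treated cells received RA for 16 hours, at 25 µM according to the labels, while the methods of the study give a lower concentration. Control cells are labelled untreated, whereas the study describes its controls as treated with the solvent DMSO. C64 is 1 clone edited by CRISPR from the JM8.N4 mESC line so that TBP carries an auxin-inducible degron (AID) tag. According to the study, it also carries a HaloTag on the largest Pol II subunit and green fluorescent protein on histone H3.3. Both groups therefore carry these tags. Neither received the auxin indole-3-acetic acid (IAA), which triggers degradation of the tagged TBP. All cells were grown on gelatin with serum and ESGRO, a preparation of leukaemia inhibitory factor (LIF), which keeps mESCs in self-renewal. The study calls the samples biological replicates, but the labels do not say how separate the cultures were. The p-values therefore rest only on the spread between these libraries, and that spread was shared across genes.

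RA, the active form of vitamin A, binds nuclear receptors (RARs) that sit on DNA as pairs with retinoid X receptors (RXRs). Without RA the pair holds corepressors, and RA exchanges them for coactivators. The receptors favour direct repeats of a short motif, and a textbook example lies in the promoter of the receptor gene Rarb itself. In mESCs RA starts differentiation, with loss of the self-renewal programme and activation of RA-metabolizing enzymes, Hox genes and, in germ cells, the meiotic gene Stra8. Pol II was mapped by CUT&Tag: the transposase Tn5, tethered through an antibody, cuts and tags DNA beside the bound protein. The measurement is the number of Pol II fragments over a whole gene, which counts paused and elongating polymerase together and is not an RNA level. Values are given as CPM (counts scaled to a library of 1000000), adjusted between libraries with TMM factors (trimmed mean of M-values), and changes as log2 of RA over control with the standard error (SE) of the fit. CPM grows with gene length, so CPM values of different genes do not rank their Pol II density.

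The RA libraries held 5038033 and 3993713 counts in genes (replicates 1 and 2), against 5026110 and 4330581 in the control libraries. Replicate 2 stood apart from replicate 1 in both groups. Carry-over E. coli DNA gave 0.566 and 12.4 reads per 100 mouse reads in RA replicates 1 and 2, against 0.531 and 8.44 in control replicates 1 and 2. Col4a1, a basement membrane collagen gene that is not among the markers summed below, had 668 and 101.6 CPM in RA libraries, against 624 and 94.8 CPM in control libraries. An RA library resembled the control library of its own number (Pearson's r of log2 CPM across genes 0.964 and 0.962) more than the other RA library (0.953), which is a description across genes and not a test. Marker genes of cell types were summed in CPM of the library total, without TMM factors. Of the marker genes that define mESCs, Nanog had 6.15 and 10.5 CPM on this scale in RA libraries, against 7.36 and 12.2 CPM in control libraries, and Sox2 was listed at 0 in every library (the gene lies inside Sox2ot, and the counting command of sister tables leaves out reads over 2 genes). The 10 mESC markers summed to 492 and 853 CPM in RA libraries, against 1090 and 1830 CPM in control libraries. Most of each sum came from Esrrb and Tfcp2l1, both called lower below. On this scale Esrrb had 231 and 417 CPM in RA libraries, against 649 and 1030 CPM in control libraries. Tfcp2l1 had 195 and 348 CPM in RA libraries, against 342 and 669 CPM in control libraries. The 7 primitive endoderm markers summed to 300 and 238 CPM in RA libraries, against 362 and 310 CPM in control libraries, and the 5 fibroblast or feeder markers to 25.0 and 43.6 CPM in RA libraries, against 25.9 and 45.3 CPM in control libraries. The share of cells of each type and the Pol II signal per cell cannot be told apart in these bulk samples.

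After 16 hours of RA, Pol II occupancy was higher at Stra8, Nrip1, Dhrs3, Rarb and Kit, among others, and lower at Ntn1, Tdh, Bnc2, Tet1 and Esrrb, among others. In a fit blocked by replicate number, 777 genes were higher in RA than in control, 4.75% of the genes tested, and 1086 were lower, 6.64% (edgeR quasi-likelihood test, Benjamini-Hochberg adjusted p under 0.05). Most of these differences were small: the median log2 change was 0.58 among the higher and -0.62 among the lower genes, and 95 higher and 197 lower genes changed 2-fold or more. Both RA CPM lay above both control CPM at 647 of the 777 higher genes and below both at 851 of the 1086 lower genes, where the shares over all tested genes were 17.2% above and 17.1% below. Both replicate pairs moved up at 773 of the higher genes and down at 1084 of the lower genes, against 32.9% and 31.2% of all tested genes. The blocked fit calls genes on their change averaged over the 2 pairs, against a spread shared across genes. Selection on that average tends to pick genes that moved the same way in both pairs. The shares above and the diagonal in the plot of the 2 pairs therefore follow from how the genes were called. Disagreement between pairs did not prevent a call: Lef1 was called lower with log2 ratios of -1.97 in replicate 1 and 0.25 in replicate 2.

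**Figure D1:**
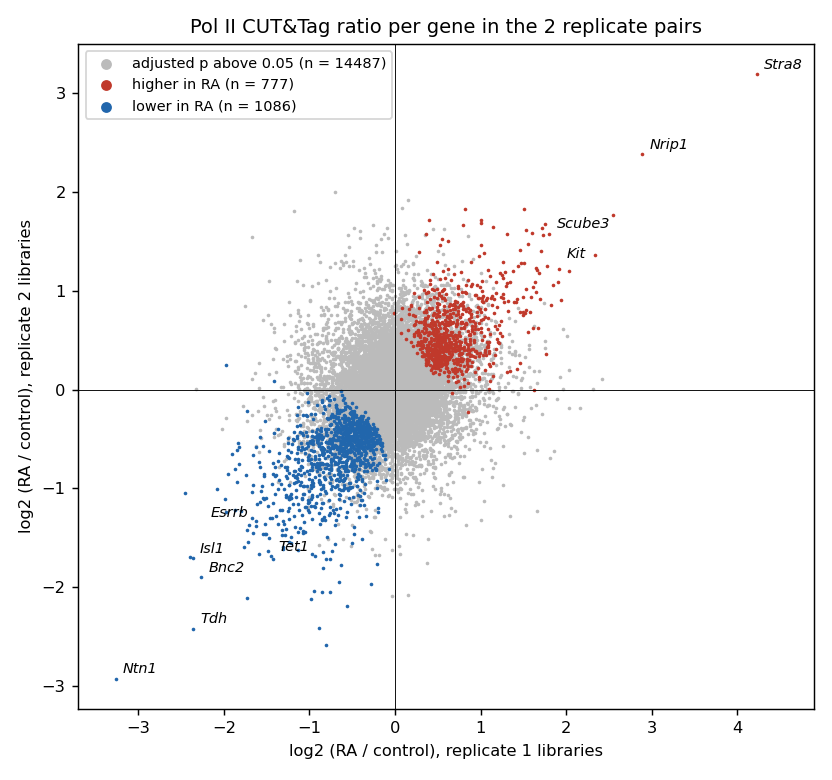
Log2 of RA over control CPM for each tested gene in replicate 1 (x axis) and replicate 2 (y axis), with the 777 higher and 1086 lower genes coloured and the other genes in grey. Most called genes lie along the diagonal, which follows from calling genes on their average change over both pairs. Stra8 and Nrip1 lie at the upper right end and Ntn1 at the lower left end.

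These counts depend on the block, which removes the difference between replicates 1 and 2. Without it, 2 genes were higher (Stra8 and Nrip1, 0.0122% of the genes tested) and 1 was lower (Ntn1, 0.00612%), while 1008 genes had an unadjusted p under 0.05, against 3785 with the block. With 2 libraries a group the blocked fit keeps 1 residual degree of freedom, so its estimate of the spread comes wholly from sharing across genes. Its SEs and p-values therefore do not measure the scatter of a gene's own libraries. At Esrrb the SE was 0.11 with the block and 0.31 without it. A joint fit with the 4 libraries that also bear on IAA, which has more residual degrees of freedom, called 397 genes higher and 666 lower, among them 396 and 664 of the genes above. In that joint fit, leaving out RA replicate 1 left 85 higher and 250 lower genes, leaving out RA replicate 2 left 174 and 268, leaving out control replicate 1 left 89 and 181, and leaving out control replicate 2 left 146 and 277. The calls of 55 higher and 113 lower genes held in each of these 4 fits. They include 17 of the 34 higher and 20 of the 74 lower genes named below by rule, and a gene is called robust here where its call held in all 4. Scaling by library totals alone called 1033 genes higher and 926 lower, a share of 52.7% higher in place of 41.7%, and scaling by E. coli reads moved the median of all genes to -0.26 and called 19 higher and 263 lower. No named gene that was called changed sign under any of these settings. The word robust covers the leave-one-out fits alone, and not the fit without the block or the scaling by E. coli reads. Rarb, for example, is robust but had an adjusted p of 0.4175 in the quasi-likelihood test without the block.

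Stra8, the germ cell gene whose product drives entry into meiosis, gained the most. It had 275 and 180.4 CPM in RA libraries, against 14.2 and 19.3 CPM in control libraries, a log2 change of 3.75 (SE 0.16, adjusted p = 1.03e-128, and 0.0281 without the block). Nrip1, which encodes the receptor-interacting corepressor RIP140, had 262 and 210.5 CPM in RA libraries, against 35.02 and 39.91 CPM in control libraries (log2 change 2.65, SE 0.13, adjusted p = 4.28e-83, and 0.0294 without the block). At both genes the lower RA library stood more than 3 times above the higher control library, and both were robust.

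**Figure D2:**
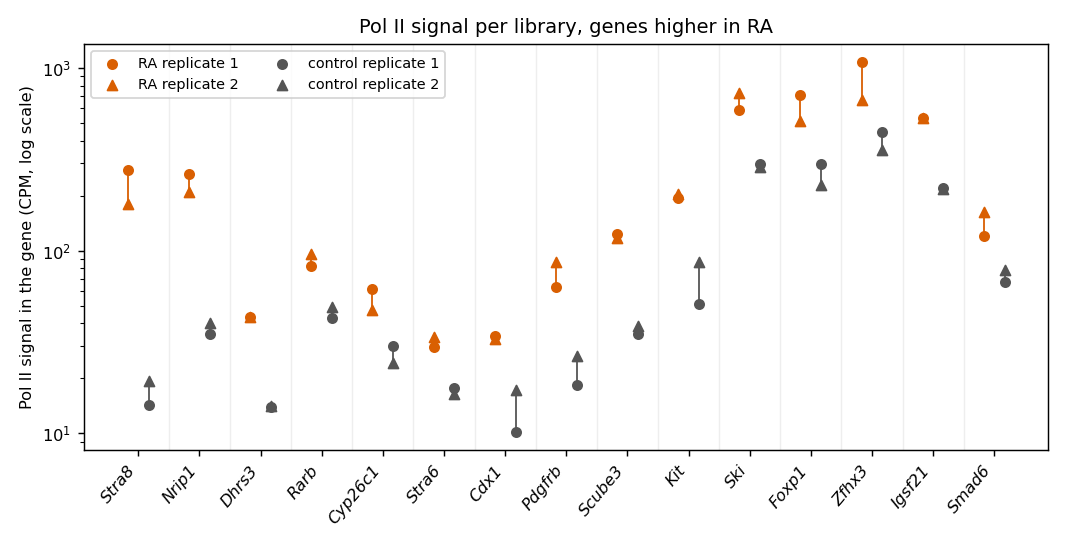
TMM-scaled CPM (log axis) of named genes with higher Pol II occupancy, with RA libraries drawn before control libraries and the replicate number marked. At Stra8 and Nrip1 the RA points lie far above the control points, whereas at Rarb the gap is about 2-fold.

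The genes of the RA pathway itself moved in part. Of 6 retinoid receptor genes, Rarb and Rxrb were higher (33.3%, against 4.75% of all genes) and none was lower. Rarb had 82.1 and 96.1 CPM in RA libraries, against 42.7 and 49.4 CPM in control libraries (log2 change 0.95, SE 0.15, adjusted p = 9.92e-09), and was robust. Rxrb had 24.8 and 23.02 CPM in RA libraries, against 14.6 and 12.7 CPM in control libraries, but its call was lost in each of the 4 leave-one-out fits. Rara, the receptor of most tissues, had 278 and 302 CPM in RA libraries, against 351 and 313 CPM in control libraries (adjusted p = 0.278), and Rxra had 112 and 109.7 CPM in RA libraries, against 106 and 115 CPM in control libraries (adjusted p = 0.991).

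Promoters are shown from RefSeq (GRCm38.p6, from 250 bases before to 50 after the start site, 5′ to 3′ on the gene's strand), with direct repeats of the receptor motif in capitals. Rarb and Pam16 are shown because the search described next found a repeat in them, and Stra8 and Nrip1 because they gained the most. The search covered 4 forms of the 6-base motif (the form AGGTCA, the form AGTTCA, the form GGGTCA and the form GGTTCA) in pairs spaced by 1, 2 or 5 bases on both strands. Rarb holds a repeat spaced by 5 bases that begins at -53 from the start site, and Pam16 holds one spaced by 1 base on the opposite strand. Stra8 and Nrip1 hold none in these windows.
Rarb (chr14:16575427-16575726, minus strand): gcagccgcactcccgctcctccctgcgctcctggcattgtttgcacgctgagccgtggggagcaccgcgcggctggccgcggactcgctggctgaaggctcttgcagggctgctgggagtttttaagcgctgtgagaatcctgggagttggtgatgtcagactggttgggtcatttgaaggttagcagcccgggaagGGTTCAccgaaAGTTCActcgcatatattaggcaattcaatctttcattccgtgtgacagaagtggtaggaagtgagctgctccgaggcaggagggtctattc
Pam16 (chr16:4624897-4625196, minus strand): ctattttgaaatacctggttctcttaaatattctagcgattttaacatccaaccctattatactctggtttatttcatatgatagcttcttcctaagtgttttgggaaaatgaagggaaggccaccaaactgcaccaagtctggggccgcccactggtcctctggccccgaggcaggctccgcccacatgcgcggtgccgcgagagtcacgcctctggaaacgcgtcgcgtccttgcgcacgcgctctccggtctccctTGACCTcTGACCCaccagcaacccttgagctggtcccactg
Stra8 (chr6:34920698-34920997, plus strand): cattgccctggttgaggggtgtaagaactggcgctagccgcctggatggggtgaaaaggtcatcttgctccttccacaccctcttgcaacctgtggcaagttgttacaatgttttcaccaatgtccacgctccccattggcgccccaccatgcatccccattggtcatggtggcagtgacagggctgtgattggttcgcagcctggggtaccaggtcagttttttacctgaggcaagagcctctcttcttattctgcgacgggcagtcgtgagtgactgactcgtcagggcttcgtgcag
Nrip1 (chr16:76373778-76374077, minus strand): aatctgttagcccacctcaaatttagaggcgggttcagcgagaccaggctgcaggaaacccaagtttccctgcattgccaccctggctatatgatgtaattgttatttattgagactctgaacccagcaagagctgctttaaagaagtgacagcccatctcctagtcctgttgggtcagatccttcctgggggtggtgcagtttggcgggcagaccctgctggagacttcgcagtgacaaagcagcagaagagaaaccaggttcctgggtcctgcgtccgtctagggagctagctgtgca

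Such repeats were rare in promoters of this length: 193 of 32851 promoters held one (0.588%), as did 56 of the 12674 tested genes with a promoter in the table (0.442%). Among genes with a promoter, 2 of 620 higher genes (0.323%, Rarb and Pam16) and 3 of 830 lower genes (0.361%) held one, so the share was not above that of all promoters. A match is a run of letters and not a measured binding site. Pam16, a mitochondrial import gene, had 11.8 and 8.55 CPM in RA libraries, against 3.82 and 2.04 CPM in control libraries, lies for nearly its whole length within Glis2, and lost its call in each leave-one-out fit.

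Among 16 genes of retinoid metabolism and binding, 4 were higher (25%, against 4.75% of all genes) and none was lower. Dhrs3, which reduces retinaldehyde back to retinol, had 43.4 and 43.2 CPM in RA libraries, against 14.0 and 14.1 CPM in control libraries (log2 change 1.63, SE 0.22, adjusted p = 1.13e-11). Its call was robust, and its libraries lay close together within each group. Cyp26c1, an RA-degrading enzyme, had 61.8 and 47.2 CPM in RA libraries, against 30.1 and 24.3 CPM in control libraries (SE 0.18 on the log2 scale, adjusted p = 1.69e-06). Its call was lost without RA replicate 2 and without control replicate 1, with an adjusted p of up to 0.137. Stra6, the retinol transporter, had 29.6 and 33.7 CPM in RA libraries, against 17.6 and 16.3 CPM in control libraries, shares bases with Ccdc33 and lost its call in all 4 leave-one-out fits. Cyp26a1, the RA-degrading enzyme most often used as a marker of RA signalling, had 13.0 and 8.55 CPM in RA libraries, against 9.34 and 9.30 CPM in control libraries, and its groups overlapped (log2 change 0.20, SE 0.34, adjusted p = 0.794). The binding protein genes Crabp1 and Crabp2 also overlapped between groups (adjusted p = 0.794 and 0.954). Among 13 coregulator genes of the receptors, Nrip1 was higher and Tbl1xr1, part of the corepressor complex, was lower (298 and 209.6 CPM in RA libraries, against 386 and 278 CPM in control libraries, with overlapping groups). Each is 1 gene of 13 (7.69%), against 4.75% of all genes higher and 6.64% lower. The Tbl1xr1 call was lost in the joint fit, in DESeq2 and in all 4 leave-one-out fits.

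A list of 19 tested textbook RA targets was split, with 4 members higher (21.1%, against 4.75% of all genes) and 5 lower (26.3%, against 6.64%). Its median log2 change was 0.06, against 0.01 over all genes. Beside Stra8, the myelin gene Pmp22 (20.9 and 27.5 CPM in RA libraries, against 11.7 and 13.6 CPM in control libraries) and Skil, a repressor of SMAD signalling, were higher, and both lost the call in each leave-one-out fit. The orphan receptor gene Nr2f2 was lower, with 20.9 and 20.9 CPM in RA libraries, against 47.1 and 38.8 CPM in control libraries, as were the transcription factor genes Foxa1 and Sox9. The Nr2f2 call was lost without RA replicate 2 and without control replicate 1, and the Foxa1 and Sox9 calls were lost without RA replicate 1 and without control replicate 1, and that of Foxa1 also without control replicate 2. Of 16 germ line and meiosis genes, 2 were higher (12.5%, against 4.75% of all genes), Stra8 and Sycp2. Sycp2, a component of the synaptonemal complex, had 11.4 and 18.8 CPM in RA libraries, against 3.82 and 10.7 CPM in control libraries. Its call was lost in 3 of the 4 leave-one-out fits and held without control replicate 2. The list's median was 0.36, and 15 of its 16 members had a positive value. Rec8, a meiotic cohesin gene known to respond to RA in germ cells, had 40.1 and 15.2 CPM in RA libraries, against 25.0 and 24.9 CPM in control libraries (adjusted p = 0.912).

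Several of the largest other gains were at receptors and signalling genes. Kit, the receptor of stem cell factor, had 195 and 203 CPM in RA libraries, against 51.2 and 86.9 CPM in control libraries (log2 change 1.56, SE 0.12, adjusted p = 2.62e-32). Pdgfrb, a receptor of platelet-derived growth factor, had 63.2 and 86.2 CPM in RA libraries, against 18.5 and 26.5 CPM in control libraries (log2 change 1.74). Scube3, which encodes a secreted protein, had 123 and 117 CPM in RA libraries, against 34.8 and 38.8 CPM in control libraries (log2 change 1.71). Slc23a4 and Spaca6 gained 1.59 and 1.57 on the log2 scale. All of these were robust. By difference in CPM, a measure that favours long genes, the leading genes included Zfhx3 (1071 and 671 CPM in RA libraries, against 445 and 353 CPM in control libraries), Ski, a corepressor of SMAD proteins (585 and 731 CPM in RA libraries, against 296 and 287 CPM in control libraries), the forkhead gene Foxp1 (711 and 513 CPM in RA libraries, against 299 and 229 CPM in control libraries) and Igsf21 (529.7 and 530.5 CPM in RA libraries, against 220.1 and 217 CPM in control libraries). These genes were robust too. In the list of 18 TGF-beta, Nodal and BMP genes, 3 were higher (16.7%, against 4.75% of all genes) and 1 was lower (5.56%, against 6.64%). They were Smad6, an inhibitor of BMP signalling, with 120.3 and 163 CPM in RA libraries, against 67.5 and 78.0 CPM in control libraries (log2 change 0.95, adjusted p = 2.21e-11, robust), Skil and Pmepa1 on the higher side and Smad7 on the lower. The calls of Skil, Pmepa1 and Smad7 were lost in all 4 leave-one-out fits, and the joint fit and DESeq2 each called 1 of the list's genes higher.

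Other entries among the 15 largest fold gains rested on few fragments. Olfr221, Slco6c1, Klhdc7a and Il5ra had 4.55 to 12.3 CPM in RA libraries, against 0.849 to 3.86 CPM in control libraries, and each lost its call in every leave-one-out fit.

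Higher genes lay side by side at several of these loci. Stra8 stood between Wdr91 (70.1 and 74.8 CPM in RA libraries, against 49.7 and 40.6 CPM in control libraries) and Slc23a4, which were also higher. Cdx1, Pdgfrb and the transporter gene Slc6a7 were 3 consecutive tested genes on chromosome 18. Rarb stood between Top2b and Thrb on chromosome 14, and Nrip1 was followed by 1700041M19Rik and Usp25 on chromosome 16. Dmrt1, a regulator of germ cell and gonad development, had 416.5 and 218 CPM in RA libraries, against 150.1 and 89.6 CPM in control libraries (log2 change 1.38, adjusted p = 3.47e-29), and closed a run with Dock8 and Kank1 on chromosome 19. Nr6a1, the orphan receptor GCNF, a repressor of Pou5f1 during differentiation, had 341 and 332 CPM in RA libraries, against 184 and 159.6 CPM in control libraries (log2 change 0.97, adjusted p = 2.11e-15), next to Nr5a1 on chromosome 2. These runs were picked after their values were seen. The counting command of sister tables leaves out reads on bases that genes of a run share, as Rarb and Top2b do.

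On the lower side, Ntn1, which encodes the secreted guidance protein Netrin-1, stood alone in size. It had 213.5 and 258 CPM in RA libraries, against 2056 and 1968 CPM in control libraries, a log2 change of -3.10 (SE 0.11, adjusted p = 3.76e-151, and 0.0281 without the block). Tdh, the threonine dehydrogenase on which mESC growth depends, had 7.65 and 7.12 CPM in RA libraries, against 41.4 and 40.4 CPM in control libraries (log2 change -2.47, SE 0.26, adjusted p = 3.00e-20). Bnc2, a zinc finger gene, had 160 and 124 CPM in RA libraries, against 769 and 465 CPM in control libraries (log2 change -2.09, SE 0.11, adjusted p = 2.78e-69). The groups were far apart at all 3 genes and the calls were robust. In the list of 21 axon guidance and adhesion genes, 3 were higher (14.3%, against 4.75% of all genes) and 7 lower (33.3%, against 6.64%). Epha4, an ephrin receptor, had 117 and 94.9 CPM in RA libraries, against 243 and 258.5 CPM in control libraries (log2 change -1.25, robust), and Sema3e, a semaphorin, moved the other way with 65.7 and 94.2 CPM in RA libraries, against 33.8 and 48.3 CPM in control libraries (log2 change 0.96, robust).

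**Figure D3:**
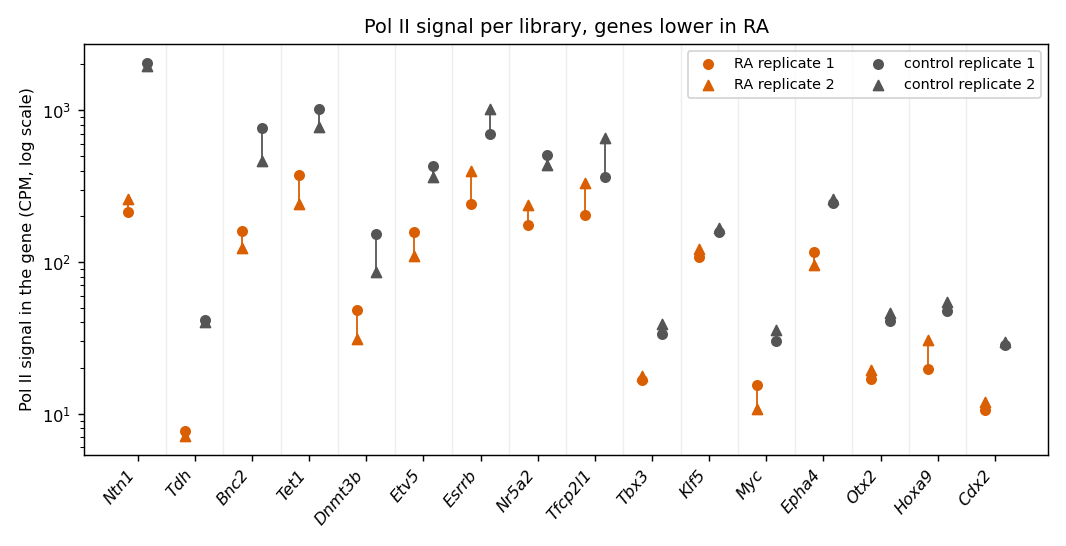
TMM-scaled CPM (log axis) of named genes with lower Pol II occupancy and of Klf5, which was not named by rule. RA libraries are drawn before control libraries and the replicate number is marked. Ntn1 shows the widest gap, and at Esrrb the RA values of 241 and 395 CPM lie below the control values of 693 and 1016 CPM although replicates differ in both groups.

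Several pluripotency genes were lower. Of 18 pluripotency transcription factor genes tested, 10 were lower (55.6%, against 6.64% of all genes), 8 were not called, none was higher and all 18 had a negative value (median log2 change -0.79, against 0.01 over all genes). DESeq2 called 4 of them lower, and 3 of the 10 calls were robust. Esrrb, an orphan receptor of naive pluripotency, had 241 and 395 CPM in RA libraries, against 693 and 1016 CPM in control libraries (log2 change -1.44, SE 0.11, adjusted p = 4.98e-36). Nr5a2, another orphan receptor, had 175 and 235.5 CPM in RA libraries, against 507 and 432 CPM in control libraries (log2 change -1.21). Tfcp2l1 had 203 and 329.7 CPM in RA libraries, against 365 and 657 CPM in control libraries (log2 change -0.92). These 3 were robust, and each replicate pair kept the order although replicates differed. Tbx3 was lower with less signal and lost the call without RA replicate 2 and without control replicate 1, and Tfe3 lost it in all 4 fits. The core factors gave little to read: Pou5f1 had 4.75 and 3.09 CPM in RA libraries, against 10.4 and 3.40 CPM in control libraries (adjusted p = 0.328), Klf4 had 5.79 and 8.78 CPM in RA libraries, against 9.98 and 14.1 CPM in control libraries (adjusted p = 0.179), and Nanog had an adjusted p of 0.708. At this depth no change was detectable at them. Around Nr5a2 on chromosome 1, 5 consecutive tested genes were lower, among them Zfp281 and the long noncoding RNA gene Platr22 (93.6 and 66.0 CPM in RA libraries, against 199 and 141.5 CPM in control libraries).

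Of 18 stem cell marker and growth genes, 11 were lower (61.1%, against 6.64% of all genes) and none was higher (median -0.66). Of the 11 calls, 2 were robust. Tet1, a dioxygenase that oxidizes 5-methylcytosine, had 374.5 and 241 CPM in RA libraries, against 1024 and 777 CPM in control libraries (log2 change -1.57, SE 0.11, adjusted p = 2.06e-42, robust). Myc, the growth regulator, had 15.5 and 10.7 CPM in RA libraries, against 30.1 and 35.4 CPM in control libraries (log2 change -1.32, SE 0.24, adjusted p = 1.74e-06), and its adjusted p was 0.174 without control replicate 2. Lin28a, an RNA-binding protein of early development, and Dnmt3l lost their calls without RA replicate 1 and without control replicate 1, and Jam2 without control replicate 2. Of 11 genes of DNA methylation and its removal, 4 were lower (36.4%, against 6.64% of all genes) and none was higher. Dnmt3b, a de novo methyltransferase, had 48.0 and 30.9 CPM in RA libraries, against 153 and 85.3 CPM in control libraries (log2 change -1.58, adjusted p = 7.43e-25, robust), whereas its paralogue Dnmt3a had 139.7 and 139 CPM in RA libraries, against 140.5 and 132 CPM in control libraries (adjusted p = 0.912). Jarid2, a partner of Polycomb repressive complex 2, and the noncoding RNA gene Pvt1 next to Myc had among the largest CPM differences, which favour long genes, with 1336 and 930 CPM in RA libraries, against 2472 and 1595 CPM in control libraries, for Jarid2, and 909.6 and 758 CPM in RA libraries, against 1766 and 1463 CPM in control libraries, for Pvt1. Both were robust.

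The signalling genes that maintain mESCs moved in part. Among 13 LIF and JAK-STAT genes, 3 were lower (23.1%, against 6.64% of all genes) and none was higher. They were Lifr, the LIF receptor, with 164 and 82.4 CPM in RA libraries, against 246 and 154 CPM in control libraries, its co-receptor Il6st, and Socs3. The Lifr groups overlapped and its call was lost without RA replicate 2, and the calls of Il6st and Socs3 were lost in all 4 fits. Among 16 FGF and MAPK feedback genes, 2 were higher (12.5%, against 4.75% of all genes) and 3 were lower (18.8%, against 6.64%). Etv5, a transcription factor induced by FGF, had 159 and 109.7 CPM in RA libraries, against 427.5 and 361 CPM in control libraries (log2 change -1.57, adjusted p = 1.30e-38, robust). Spred2, an inhibitor of the pathway, had 844 and 634.5 CPM in RA libraries, against 533 and 473 CPM in control libraries (log2 change 0.54), a call lost without RA replicate 1 and without either control library. Among 21 Wnt pathway genes, 1 was higher (Wnt3, 4.76%, against 4.75% of all genes) and 6 were lower (28.6%, against 6.64%). The joint fit called 0 higher and 2 lower, DESeq2 called 0 and 1, and no call in this list was robust. Lef1 showed how far a single library can matter: it had 34.3 and 58.2 CPM in RA libraries, against 136 and 49.0 CPM in control libraries, and without control replicate 1 its log2 change was -0.11 (adjusted p = 0.948). Its call was also lost without RA replicate 1.

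Of 17 glycolysis and glucose transport genes, 8 were lower (47.1%, against 6.64% of all genes), 9 were not called, none was higher and all 17 had a negative value (median -0.44, against 0.01 over all genes). Of the 8 calls, 2 were robust. Pfkp, a phosphofructokinase, had 189 and 221 CPM in RA libraries, against 371 and 389 CPM in control libraries (log2 change -0.89, adjusted p = 2.26e-13), and Pdk1, which inhibits pyruvate dehydrogenase, had 48.2 and 40.8 CPM in RA libraries, against 86.8 and 90.9 CPM in control libraries (adjusted p = 1.75e-09). Both were robust. Hexokinase gene Hk2 and the glucose transporter gene Slc2a1 were lower by 0.74 and 0.62 on the log2 scale, and Hk2 lost its call without RA replicate 2 and without control replicate 2, Slc2a1 without RA replicate 1 and without either control library. Gapdh is also the only member called among 14 housekeeping and general transcription genes (7.14%, against 6.64% of all genes). It had 104 and 69.3 CPM in RA libraries, against 134 and 93.2 CPM in control libraries, with overlapping groups. This call was lost in all 4 fits. Ndrg1, a stress-responsive gene, had 9.71 and 13.5 CPM in RA libraries, against 55.4 and 28.6 CPM in control libraries (log2 change -1.82), and its adjusted p was 0.0862 without control replicate 1.

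**Figure D4:**
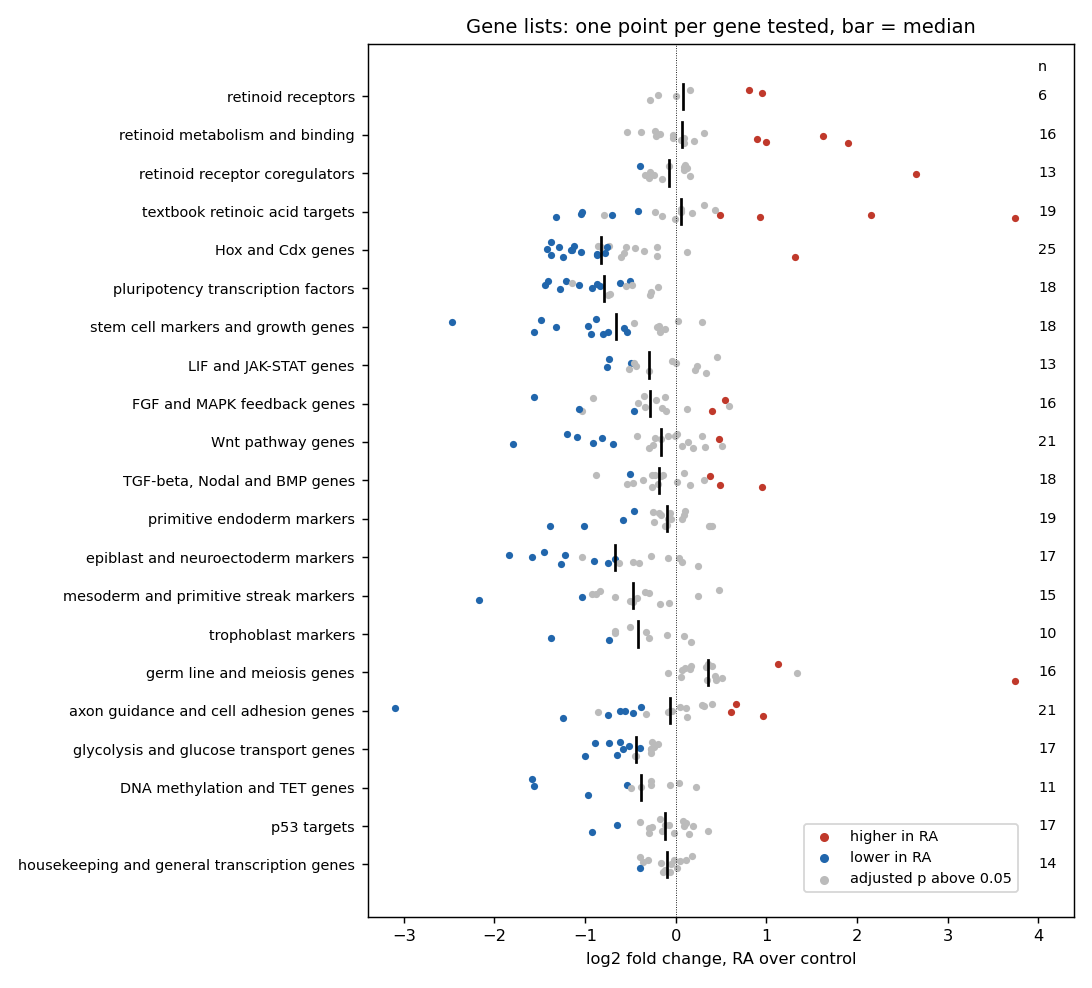
Log2 change (RA over control) of the tested members of each gene list with more than 2 of them, 1 point a gene, with called genes coloured by direction and the median of each list marked. All members of the pluripotency transcription factor and glycolysis lists lie below 0, and the called genes of the retinoid receptor and retinoid metabolism lists all lie above 0.

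Hox genes, which RA activates in order along the body axis during differentiation, were not called higher at 16 hours where they were tested. Of 42 Hox and Cdx genes, 25 passed the count filter. Of these, 1 was higher (4%, against 4.75% of all genes) and 13 were lower (52%, against 6.64% of all genes), with a median of -0.82. Of the 13 calls, 2 were robust. The gene called higher was Cdx1, a regulator of Hox genes, with 34.1 and 32.99 CPM in RA libraries, against 10.2 and 17.2 CPM in control libraries (log2 change 1.32, SE 0.24, adjusted p = 1.22e-06). Its adjusted p was 0.102 without RA replicate 1, and its call was also lost without control replicate 1. Cdx2 moved the other way, with 10.5 and 11.9 CPM in RA libraries, against 28.4 and 29.5 CPM in control libraries (log2 change -1.37, robust). Hoxa9 had 19.6 and 30.6 CPM in RA libraries, against 47.8 and 54.2 CPM in control libraries (log2 change -1.04, adjusted p = 0.109 without control replicate 1), and Hoxa7 had 13.0 and 19.9 CPM in RA libraries, against 27.4 and 46.3 CPM in control libraries (log2 change -1.15, robust). Hoxa2 and Hoxb2, anterior genes known for an early response to RA, did not pass the filter, and Hoxb1 had 3.72 and 6.88 CPM in RA libraries, against 6.16 and 5.67 CPM in control libraries (adjusted p = 0.846). Control libraries of an earlier run gave 23.3 and 30.9 CPM at Hoxa9 when scaled together with these 4, which overlaps the RA values. Of the 13 lower Hox and Cdx genes, 5 were also below both earlier control libraries, as Cdx2 was (18.9 and 20.6 CPM there). Over all calls, 531 of the 777 higher genes and 680 of the 1086 lower genes lay beyond those libraries too, against 10.2% and 10.7% of all tested genes. These counts also ask the RA values to lie beyond the control libraries of this run, against which the genes were called. The excess over all genes therefore follows in part from how the genes were called. Run and culture cannot be told apart in that comparison.

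On 4 lists of markers of other lineages, no gene was called higher. Of 17 epiblast and neuroectoderm markers, 8 were lower and none was higher, of 19 primitive endoderm markers 4 were lower, of 15 mesoderm and primitive streak markers 2 were lower, and of 10 trophoblast markers 2 were lower, against 6.64% of all genes. Robust calls numbered 2 among the epiblast and neuroectoderm markers, 0 among primitive endoderm, 1 among mesoderm and 1 among trophoblast markers. Otx2, a homeobox gene of the epiblast and forebrain, had 16.95 and 19.46 CPM in RA libraries, against 41.0 and 46.3 CPM in control libraries (log2 change -1.26, adjusted p = 8.35e-08, robust), and Lhx1 had 28.1 and 28.7 CPM in RA libraries, against 56.9 and 59.2 CPM in control libraries (log2 change -1.03, robust). The LIM homeobox gene Isl1 (2.69 and 4.51 CPM in RA libraries, against 15.9 and 15.9 CPM in control libraries) lost its call without RA replicate 1. Sox17 and Foxa2, of endoderm, were lower and lost their calls without RA replicate 1 and without control replicate 1. Sox3, Dkk1, Six6, Armcx1 and Hoxd3os1, among the 15 largest fold losses, had 0.712 to 3.80 CPM in RA libraries, against 4.54 to 13.2 CPM in control libraries, and lost their calls in every leave-one-out fit. Of 17 p53 targets 2 were lower (11.8%, against 6.64% of all genes), neither of them robust, and of the 2 two-cell stage genes tested, Arg2 and Duxf3, none was called.

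Higher genes were long. Their median length was 67.3 kb, against 29.9 kb for lower genes and 25.5 kb for genes not called, and their median CPM was 65.5, against 80.8 and 26.5. With genes ranked by length into 5 equal groups, the share of higher genes was 1.90%, 2.63%, 3.70%, 4.62% and 10.9% from the shortest to the longest, while the share of lower genes stayed between 5.69% and 7.89%. The median log2 change of these groups ran from -0.07 for the shortest to 0.10 for the longest genes, while for RA with IAA over IAA the medians of the same groups lay between 0.0053 and 0.0299. Longer genes also collect more fragments, and the part of that in their share of calls was not tested. A TATA box list of the study held 184 of the higher genes (23.7%) and 300 of the lower genes (27.6%), against 22% of all genes tested.

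The same comparison was made in cells that also received IAA for 16 hours, with RA and without, in 4 other libraries. There, 740 of the 777 higher genes had a positive log2 change (95.2%, against 53% of all genes) and 1030 of the 1086 lower genes a negative one (94.8%, against 47%). The medians were 0.38 and -0.40, smaller in size than the 0.58 and -0.62 in cells with TBP, where the genes had been chosen. Stra8 had a log2 change of 3.64 with IAA, Nrip1 2.48 and Ntn1 -2.58. A test of the difference between both responses called 0 of 17032 genes (0%, edgeR quasi-likelihood test with the block), with 580 at an unadjusted p under 0.05, and a likelihood-ratio test also called none. A difference can still lie below what 2 libraries a group can show: at Ndrg1 the log2 change was -1.82 with TBP and -0.58 with IAA, and at Slc2a1 -0.62 and 0.02 (adjusted p of the difference 0.9999 at both).

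**Figure D5:**
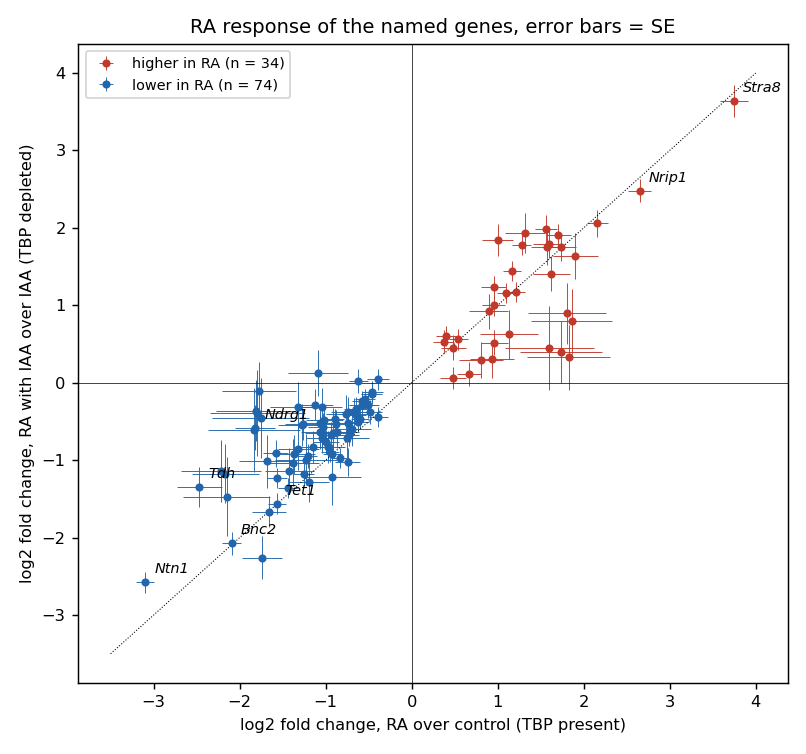
Log2 change of RA over control in cells with TBP (x axis) and of RA with IAA over IAA (y axis) for the 34 higher and 74 lower genes named by rule, with bars for the SE and a dotted line where both are equal. Stra8 and Nrip1 lie close to the line, Tdh and Ndrg1 lie above it, and Sp5, Slc2a1 and Gapdh are the only genes on the other side of 0 on the y axis.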

How the data were processed

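Pol II CUT&Tag reads were subsampled, aligned to mm10 with Bowtie2 and counted by the authors with featureCounts over whole genes of the Ensembl GRCm38 annotation without pseudogenes. The deposited values are raw counts per gene, with PCR duplicates kept. The counting command of sister tables names no strand option and leaves out reads over 2 genes. Another 6 sample columns could not be matched to labels and were not used. Genes were kept with filterByExpr (minimum count 20), scaled with TMM and tested with edgeR 4.0.16 in R 4.3.3 (quasi-likelihood F test, replicate number as a block, Benjamini-Hochberg adjustment). DESeq2 1.42.0 was an alternative, and the edgeR steps were tested on simulated data. The block follows the replicate number in the labels. Same-numbered libraries of different groups deviated together (correlations 0.424 to 0.629 over 17032 genes). E. coli scaling used the deposited counts of reads aligned to mm10 and E. coli. Named genes were the 15 largest changes a direction with no overlap between groups, up to 6 called members a list (up to 3 with the smallest p where none was called), the study's own RA genes and the 5 largest CPM differences a direction. The members and the 22 lists were chosen with earlier results of these data known. Coordinates are GRCm38, and promoters from RefSeq matched by symbol. Some genes are not reported here.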

Additional observations from a re-analysis of the deposited data

How the results depend on the processing

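The number of calls depended on the replicate block. With the block 777 genes were higher and 1086 lower in RA than in control, and without it the same edgeR test called 2 higher and 1 lower. A likelihood-ratio test without the block called 44 and 88, and DESeq2 with the block called 126 and 298, all of them among the main calls. The joint fit of 4 groups with the block gave 397 and 666, and E. coli spike-in scaling gave 19 and 263. Leaving out 1 library at a time from the joint fit gave 85 to 174 higher and 181 to 277 lower genes, and the lone library of a group was then assumed to vary like the others. DESeq2 without the block called 36 and 51. The likelihood-ratio test with the block, RLE scaling, library totals, no low-count filter and a minimum count of 100 kept both counts within 1.5 times. No named gene changed sign under any alternative, but 105 of the 108 called lost the call without the block, 49 did under DESeq2 with the block and 53 under spike-in scaling. Genes with few fragments are limited by depth, and 24 named genes did not reach a minimum count of 100.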
